A study of Mus musculus with 18 samples.

Results

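The genes described here encode the 3 receptor chains through which T cells sense interleukin 6 (IL-6) and interleukin 27 (IL-27), namely Il6ra, Il6st and Il27ra, the 4 Janus kinases Jak1, Jak2, Jak3 and Tyk2, and the phosphatases Ptpn2, Ptpn6 and Ptpn11. All probe sets annotated to 1 of these 10 genes and to no other gene were taken, which gave 24 of the 45037 probe sets on the array that are not controls. A further 2 probe sets annotated to Jak3 together with the overlapping gene Insl3 were left out, so Jak3 rests on 1 probe set. Of the 24, 22 passed the filter on dim probe sets and were among the 26860 tested; the other two read Ptpn2 and Ptpn11.

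IL-6 binds the IL-6 receptor alpha chain (Il6ra), and the complex then recruits gp130 (Il6st), the chain that carries the signal into the cell. IL-27 is a heterodimer that binds its own chain, Il27ra, paired with the same gp130. Both receptors hold Janus kinases on their inner side, chiefly JAK1 with JAK2 or TYK2, which phosphorylate the receptor tails and the transcription factor STAT3. JAK3 instead works with the common gamma chain of the receptors for IL-2, IL-4, IL-7 and IL-21. The phosphatases TC-PTP (Ptpn2) and SHP-1 (Ptpn6) remove phosphate from JAKs or STATs, and SHP-2 (Ptpn11) binds to gp130, where it both relays a signal to the RAS pathway and limits the STAT response.

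Total RNA was measured on 18 arrays of naive CD4 T cells, sorted from spleen and lymph nodes by the presence of CD62L and the absence of CD44 and CD25, all on a C57BL/6J background and all harvested after 3 hours in culture. STAT3-deficient cells (Cd4-Cre_C57BL6-STAT3<tm1Dlv>, STAT3KO), in which Cre driven by Cd4 deletes Stat3 in T cells and leaves it in other cells, were kept with IL-27, with IL-6 or in medium alone, and wild type (WT) cells were kept under the same conditions; each cytokine was used at 20 ng/ml. Each of the 6 groups holds 3 arrays, which the series calls biological triplicates. The labels say neither whether the WT mice carried Cre, nor how old the mice were, nor whether cells of several mice were pooled.

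Of the T cell markers chosen, all 9 on the array passed the filter, as did all 5 of the naive T cell markers, Ccr7 and Lef1 among them. Array medians as deposited lay between 104.4 and 190.3 units. Genotype was the main split, since all STAT3-deficient arrays lay apart from all WT arrays on the first principal component (33.8% of the variance). STAT3-deficient and WT arrays also differed throughout in the ratio of the 3' to the 5' control probe set of Gapdh, a sign of how RNA was preserved and labelled, which was 0.688 to 0.829 in STAT3-deficient cells and 0.513 to 0.564 in WT cells. The same ratio for beta-actin was 1.51 to 1.63 in STAT3-deficient cells and 1.38 to 1.48 in WT cells. The summed signal of 11 B cell markers ranged from 2870 to 6580 units in STAT3-deficient cells and from 1070 to 1470 units in WT cells, and that of 12 myeloid markers from 1100 to 2050 units in STAT3-deficient cells and from 921 to 1340 units in WT cells. That of 9 CD8 T and NK cell markers ranged from 2160 to 2750 units in STAT3-deficient cells and from 2510 to 3670 units in WT cells. These did not move as one: in medium 1 of the 6 tested was called higher and 2 lower in STAT3-deficient cells, with a median change of 0.02. Comparisons within a genotype are therefore given first, and the comparison of genotypes in medium last. In the deleted gene itself, the probe set with the highest signal read 1180 units in STAT3-deficient cells and 2600 units in WT cells in medium, a log2 change of -1.11 ± 0.12 (SE, limma adjusted p = 1.15e-05), and another was lower by -0.92 ± 0.13. A dimmer one was higher by 0.80 ± 0.27 (adjusted p = 0.0345), and the last stood at 0.12 ± 0.20. The probe set with the highest signal read 2400 units with IL-6 and 4140 units with IL-27 in STAT3-deficient cells.

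Signals below are in array units after quantile normalisation and are listed by sample number. Changes are log2 values of the signal plus 32 with the standard error (SE) of a limma model over all 18 arrays. A probe set was called where the p adjusted over all 26860 probe sets was under 0.05. The signal of one probe set cannot be set against that of another as an amount of RNA, and a lower signal cannot be told apart from fewer cells of a type that expresses the gene.

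Il6st, the shared signalling chain, rose with IL-6 in WT cells. Its brightest probe set (1452843_at) read 1310, 1170 and 1190 units with IL-6 and 1240, 1140 and 1370 units in medium in STAT3-deficient cells. In WT cells it read 2120, 2840 and 2900 units with IL-6, against 1400, 1400 and 1430 units in medium. All 3 WT arrays with IL-6 lay above every other array, and the other 5 groups overlapped as neighbours. The change was 0.87 ± 0.12 in WT cells (1.83-fold, adjusted p = 6.18e-05) and -0.03 ± 0.12 in STAT3-deficient cells (adjusted p = 0.983). The difference between these effects was -0.90 ± 0.17 for STAT3-deficient relative to WT cells (adjusted p = 0.00519). With median centring of the arrays in place of quantile normalisation this difference was -0.69 and was not called (adjusted p = 0.203).

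With IL-27, Il6st was not called in either genotype. The same Il6st probe set read 1450, 1400 and 1240 units with IL-27 in STAT3-deficient cells and 1170, 1170 and 1260 units with IL-27 in WT cells. All 3 WT arrays with IL-27 lay below the WT medium arrays. The value against medium was 0.12 ± 0.12 (adjusted p = 0.722) in STAT3-deficient cells and -0.23 ± 0.12 (adjusted p = 0.462, 95% interval -0.48 to 0.02) in WT cells. Set directly against IL-6, IL-27 gave lower Il6st in WT cells by -1.10 ± 0.12 (adjusted p = 9.65e-06), with no overlap between the arrays.

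The other probe sets of Il6st bear on how far this can be read as the whole gene. The second brightest, 1460295_s_at, read 924, 1170 and 1320 units with IL-6 and 586, 588 and 619 units in medium in WT cells, a rise of 0.88 ± 0.23 (adjusted p = 0.023). In STAT3-deficient cells it read 350, 212 and 464 units with IL-6 and 380, 242 and 417 units in medium, and its change was -0.04 ± 0.23. The rise in WT cells lost its call when any WT medium array, or the WT IL-6 array numbered 2 or 3, was left out (adjusted p from 0.053 to 0.125). The third, 1437303_at, read 320, 491 and 540 units with IL-6 and 262, 199 and 300 units in medium in WT cells, a value of 0.74 ± 0.25 that did not pass (adjusted p = 0.0969), though the groups did not overlap. The dimmest, 1421239_at, which lay above the median of its array on 6 of 18 arrays, stood at 0.28 ± 0.27. The differences between genotypes in the IL-6 effect on these 3 probe sets were -0.92 ± 0.32, -0.80 ± 0.35 and -0.04 ± 0.37, and none passed.

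**Figure D1:**
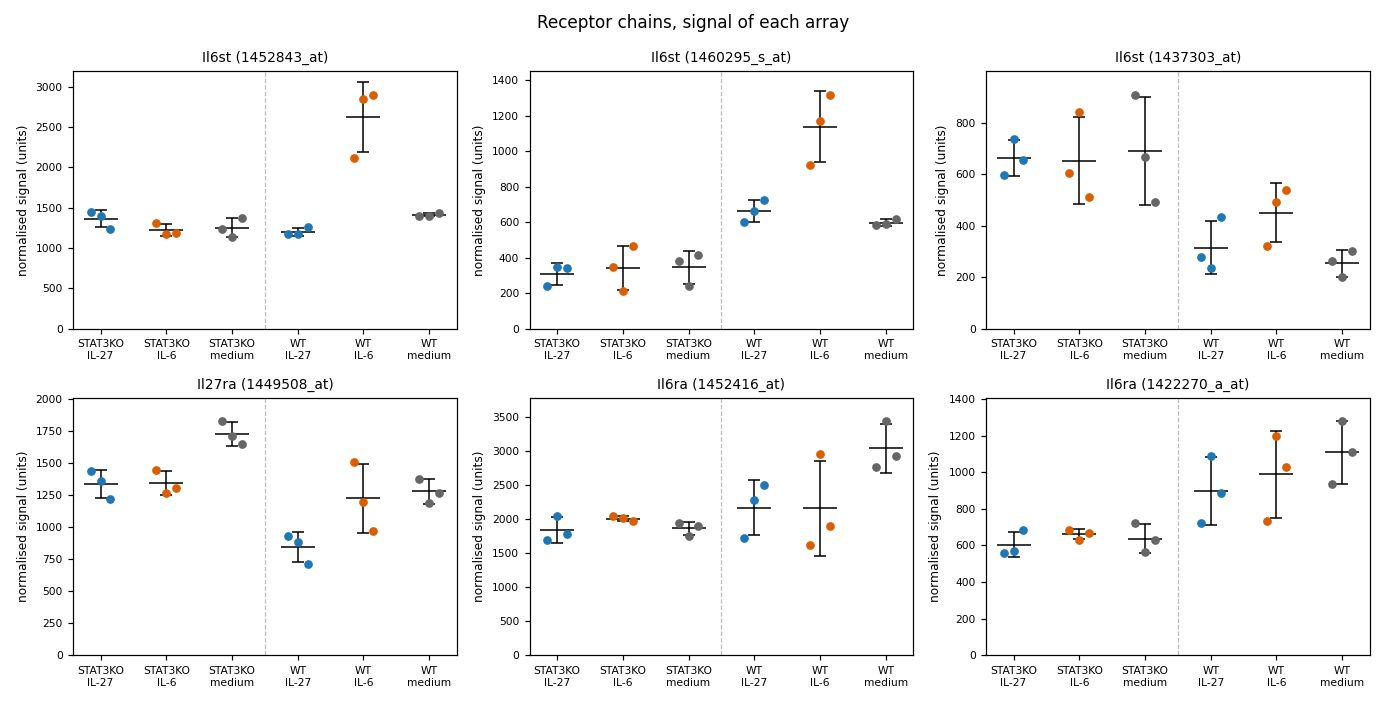
Normalised signal (array units, linear axis from 0) of 6 receptor chain probe sets on every array, with STAT3-deficient groups left and WT groups right of the dashed line; points are arrays, horizontal bars the mean and whiskers the SD of 3 arrays. The 2 brightest Il6st probe sets were highest in WT cells with IL-6, Il27ra was lowest in WT cells with IL-27, and both Il6ra probe sets in medium were lower in STAT3-deficient cells.

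The sequence around the Il6st start is shown because this gene responded to IL-6 in WT cells. It is the RefSeq promoter window of 250 bases before to 50 after the start (GRCm38.p6, chr13:112463820-112464119, plus strand), with CCAAT and GGGCGG, read on either strand, in capitals.
Il6st: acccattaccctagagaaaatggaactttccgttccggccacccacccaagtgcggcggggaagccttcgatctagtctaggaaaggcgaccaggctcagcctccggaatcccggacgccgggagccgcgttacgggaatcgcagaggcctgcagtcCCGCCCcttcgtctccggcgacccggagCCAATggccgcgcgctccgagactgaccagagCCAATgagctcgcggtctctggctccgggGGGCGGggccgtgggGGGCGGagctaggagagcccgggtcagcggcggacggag
The window holds 2 CCAAT and 3 GGGCGG matches; 37.4% and 35.7% of the 32851 promoter windows in the table hold at least 1 of each, motifs that were chosen after the sequences were seen. It holds no match to TTCNNNGAA, the letters that STAT dimers bind, which is the same on both strands and is found in 8.3% of all windows. No match was found in any of the 8 windows of these genes that the table holds, those of Il6ra, Il6st, the 4 kinases, Ptpn6 and Ptpn11. That says only that these letters are not in these windows.

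Il27ra, the IL-27 binding chain, fell with IL-27 in WT cells. Its 1 probe set read 932, 888 and 713 units with IL-27 and 1380, 1190 and 1270 units in medium in WT cells, with all IL-27 arrays below all medium arrays. The change was -0.59 ± 0.14 (adjusted p = 0.0232), a signal 0.666 times that of medium. In WT cells IL-6 gave 1510, 1200 and 968 units, a value of -0.08 ± 0.14 (adjusted p = 0.881), and IL-27 set against IL-6 gave -0.51 ± 0.14, which did not pass (adjusted p = 0.0735). The call with IL-27 was lost with median centring (adjusted p = 0.12) and without the WT medium array numbered 1 or 3 or the WT IL-27 array numbered 2 or 3 (adjusted p from 0.0525 to 0.146). T cell markers were lower in the same comparison, 3 of 9 general ones and 3 of 5 of naive cells, with medians of -0.34 and -0.41. The summed signal of the naive cell markers was 62300 to 67200 units with IL-27 and 85300 to 86200 units in medium in WT cells. Their part in the change of Il27ra was not tested.

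In STAT3-deficient cells Il27ra read 1440, 1360 and 1220 units with IL-27, 1450, 1270 and 1310 units with IL-6 and 1830, 1710 and 1650 units in medium. The medium arrays lay above the arrays of both cytokines, yet neither value passed, at -0.36 ± 0.14 with IL-27 (adjusted p = 0.219) and -0.36 ± 0.14 with IL-6 (adjusted p = 0.479). The effect of IL-27 differed between STAT3-deficient and WT cells by 0.22 ± 0.20 (adjusted p = 0.792, 95% interval -0.19 to 0.64). A difference anywhere in that interval, or none, was compatible with these arrays.

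Il6ra, the IL-6 binding chain, was not called with either cytokine in either genotype. The brighter probe set, 1452416_at, read 1620, 2950 and 1900 units with IL-6, 1720, 2280 and 2500 units with IL-27 and 2760, 3440 and 2920 units in medium in WT cells. All 3 IL-27 arrays lay below the medium arrays, and the IL-6 array numbered 2 overlapped them. The values were -0.53 ± 0.17 with IL-6 (adjusted p = 0.0811) and -0.49 ± 0.17 with IL-27 (adjusted p = 0.164). Without the WT IL-6 array numbered 2 the IL-6 value was -0.78 and passed (adjusted p = 0.00283). The other probe set, 1422270_a_at, stood at -0.18 ± 0.18 and -0.30 ± 0.18. In STAT3-deficient cells the brighter probe set read 1690, 2050 and 1780 units with IL-27, 2040, 2010 and 1970 units with IL-6 and 1940, 1750 and 1900 units in medium. The IL-6 arrays lay above the medium arrays there, with values of 0.11 ± 0.17 for IL-6 and -0.02 ± 0.17 for IL-27.

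Among the kinases, Jak3 rose and Jak1 fell with both cytokines in WT cells. The Jak3 probe set (1425750_a_at) read 647, 592 and 559 units with IL-6 and 567, 413 and 585 units with IL-27, against 219, 211 and 149 units in medium, in WT cells. All arrays of each cytokine lay above all medium arrays. The change was 1.5 ± 0.22 with IL-6 (2.83-fold, adjusted p = 0.000148) and 1.30 ± 0.22 with IL-27 (2.47-fold, adjusted p = 0.00122); both share the same medium arrays. IL-27 set against IL-6 gave -0.20 ± 0.22, which did not pass (adjusted p = 0.918).

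Jak3 was not called with either cytokine in STAT3-deficient cells. They read 247, 217 and 108 units with IL-6 and 205, 183 and 233 units in medium, and the value was -0.16 ± 0.22 (adjusted p = 0.945). The IL-6 effect was lower than in WT cells by -1.66 ± 0.31 (adjusted p = 0.00579). With IL-27 they read 337, 267 and 256 units, all above the medium arrays, a value of 0.41 ± 0.22 that did not pass (adjusted p = 0.433). The effect of IL-27 differed between STAT3-deficient and WT cells by -0.89 ± 0.31, which did not pass either (adjusted p = 0.684). Over all alternatives the rise with IL-6 in WT cells kept its call, with changes from 1.18 to 1.64.

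Jak1, the kinase common to both receptors, was lower with each cytokine in WT cells on its 2 brightest probe sets. The first, 1433805_at, read 6350, 7430 and 6490 units with IL-6 and 7510, 7660 and 8280 units with IL-27, against 10800, 11700 and 10900 units in medium. Here the 3 WT groups did not overlap, with medium highest and IL-6 lowest. The change was -0.72 ± 0.09 with IL-6 (adjusted p = 3.05e-05) and -0.51 ± 0.09 with IL-27 (adjusted p = 0.00222). The value for IL-27 set against IL-6 was 0.21 ± 0.09, not called (adjusted p = 0.428). The second, 1433803_at, read 4980, 5250 and 5000 units with IL-6 and 5050, 5530 and 5870 units with IL-27, against 8100, 8520 and 7780 units in medium. It changed by -0.68 ± 0.09 and -0.57 ± 0.09 (adjusted p = 3.13e-05 and adjusted p = 0.000393). With median centring the IL-27 changes of the pair were -0.52 and -0.62 and were not called (adjusted p = 0.15 and adjusted p = 0.0573). Markers of T cells moved beside Jak1: in WT cells 5 of 9 were lower with IL-6 and 3 of 9 with IL-27, and the summed signal of all 9 was 71500 to 72800 units with IL-6, 77800 to 81300 units with IL-27 and 94400 to 101000 units in medium. Of the naive cell markers 4 of 5 were lower with IL-6, with a summed signal of 59900 to 62500 units. Their part in the change of Jak1 was not tested.

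In STAT3-deficient cells the first Jak1 probe set read 13500, 12300 and 10000 units with IL-27, 13800, 12800 and 12500 units with IL-6 and 14000, 13700 and 14500 units in medium. The IL-6 value was -0.11 ± 0.09 (adjusted p = 0.889), and the IL-6 effect differed from that in WT cells by 0.62 ± 0.13 (adjusted p = 0.0146). This difference lost its call without the WT medium array numbered 2 (adjusted p = 0.0508), without a variance trend (adjusted p = 0.0862) and with the mean of all Jak1 probe sets (adjusted p = 0.195). For the second probe set the difference was 0.47 ± 0.12 (adjusted p = 0.058), with an IL-6 value of -0.21 ± 0.09 in STAT3-deficient cells (adjusted p = 0.529). With IL-27 the first probe set stood at -0.24 ± 0.09 and was not called (adjusted p = 0.214). The IL-27 effect differed from that in WT cells by 0.27 ± 0.13 for the first and 0.19 ± 0.12 for the second, and neither passed (adjusted p = 0.688 and adjusted p = 0.734). With IL-27 the second probe set read 9080, 8630 and 7780 units, against 11100, 10100 and 12000 units in medium, a change of -0.38 ± 0.09 (adjusted p = 0.0157). That call was lost without the STAT3-deficient medium array numbered 1 or 3 or the IL-27 array numbered 3 (adjusted p from 0.0553 to 0.0791), and with median centring the value was -0.02. The dimmest Jak1 probe set, 1433804_at, stood at -0.38 ± 0.23 with IL-6 and -0.27 ± 0.23 with IL-27 in WT cells, and neither passed.

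**Figure D2:**
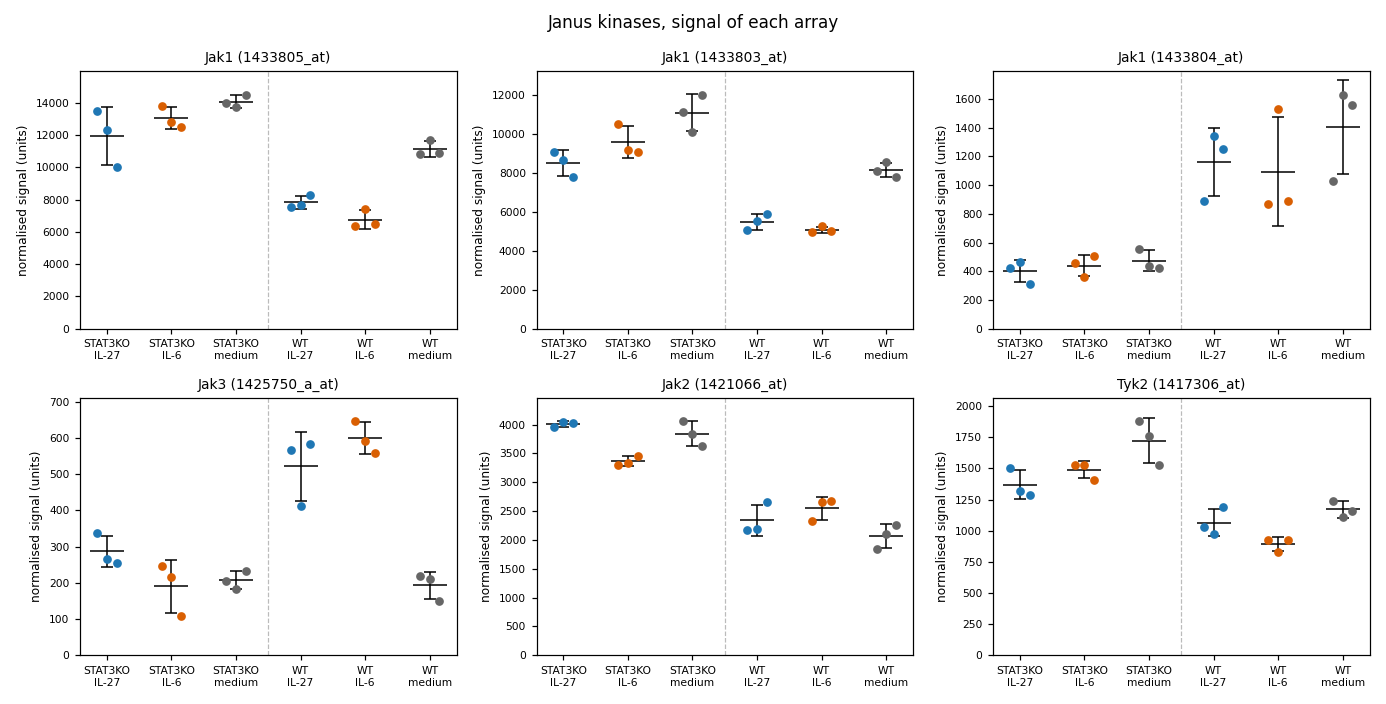
Normalised signal (array units, linear axis from 0) of 6 Janus kinase probe sets on every array, with STAT3-deficient groups left and WT groups right of the dashed line; points are arrays, horizontal bars the mean and whiskers the SD of 3 arrays. Jak3 was highest in WT cells with either cytokine, the 2 bright Jak1 probe sets were lowest there, and the Jak2 and Tyk2 probe sets shown were higher in STAT3-deficient than in WT cells in medium.

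The windows around the starts of Jak3 and Jak1 are shown as those of the kinases that rose and fell in WT cells, from the same RefSeq table and with the same letters in capitals (GRCm38.p6, chr8:71676133-71676432, plus strand, and chr4:101265174-101265473, minus strand).
Jak3: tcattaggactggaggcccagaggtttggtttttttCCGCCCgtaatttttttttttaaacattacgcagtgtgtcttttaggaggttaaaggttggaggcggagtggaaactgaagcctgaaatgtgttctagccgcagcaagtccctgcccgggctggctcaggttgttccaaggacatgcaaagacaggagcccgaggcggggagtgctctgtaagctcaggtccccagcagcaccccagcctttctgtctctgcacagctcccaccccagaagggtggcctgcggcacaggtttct
Jak1: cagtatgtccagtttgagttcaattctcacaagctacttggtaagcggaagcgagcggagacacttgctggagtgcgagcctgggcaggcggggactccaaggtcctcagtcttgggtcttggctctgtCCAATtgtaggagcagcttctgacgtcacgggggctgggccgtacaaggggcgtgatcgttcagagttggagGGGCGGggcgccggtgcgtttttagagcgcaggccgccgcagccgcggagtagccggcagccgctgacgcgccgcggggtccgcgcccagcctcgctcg
The Jak3 window holds 1 GGGCGG match and no CCAAT, and the Jak1 window holds 1 of each.

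Jak2 and Tyk2, the partners of JAK1 at these receptors, were not called with either cytokine. In WT cells the brighter Jak2 probe set, 1421066_at, read 2320, 2650 and 2670 units with IL-6 and 1840, 2110 and 2250 units in medium. The value was 0.30 ± 0.10 (adjusted p = 0.0921), and the other Jak2 probe set stood at 0.32 ± 0.10 (adjusted p = 0.0804), in both without overlap between the arrays. The brighter Tyk2 probe set, 1417306_at, read 928, 826 and 925 units with IL-6 and 1240, 1110 and 1160 units in medium. It stood at -0.38 ± 0.11 with adjusted p = 0.0525, again without overlap, and passed in some alternatives (adjusted p = 0.0247 with the deposited scaling). With IL-27 in WT cells the 2 Jak2 values were 0.17 ± 0.10 and 0.14 ± 0.10 and that of the brighter Tyk2 probe set -0.13 ± 0.11. In STAT3-deficient cells these 3 values lay between -0.20 and 0.02 with IL-6 and between -0.32 and 0.23 with IL-27. The dimmer Tyk2 probe set, 1432576_at, stood at -0.27 ± 0.25 with IL-6 and 0.22 ± 0.25 with IL-27 in WT cells. In STAT3-deficient cells it stood at -0.31 ± 0.25 and 0.25 ± 0.25.

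No change of the phosphatases was detected. None of their 7 tested probe sets was called by limma in any of the 6 comparisons of treatments within a genotype, where their values ran from -0.35 to 0.57 and the lowest adjusted p was 0.203. The brightest Ptpn2 probe set (1438562_a_at) read 5260, 6230 and 6000 units with IL-6, 5150, 5360 and 5790 units with IL-27 and 4790, 4710 and 5400 units in medium in WT cells, and the groups overlapped. Its value with IL-6 was 0.23 ± 0.09 (adjusted p = 0.203, 95% interval 0.03 to 0.42). The brightest Ptpn11 probe set (1451225_at) read 2430, 2570 and 2110 units with IL-6 and 2820, 2690 and 2280 units in medium, at -0.13 ± 0.12. The Ptpn6 probe sets stood at -0.18 ± 0.15 and -0.35 ± 0.20. The untested Ptpn2 probe set (1425198_at) ranged from 7.87 to 102 units and the untested Ptpn11 probe set (1421196_at) from 43.8 to 132 units, both below the median of their array on all 18 arrays.

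Counted together, 5 of the 22 probe sets were called with IL-6 in WT cells, 3 higher and 2 lower, where 6.19% of all probe sets were called, 2.97% higher and 3.22% lower. These 5 belong to 3 of the 10 genes, since probe sets of the same gene are counted separately. With IL-27 in WT cells 4 probe sets of 3 genes were called, 1 higher and 3 lower, against a background of 3.06%, 1.99% higher and 1.07% lower. Between IL-27 and IL-6 in WT cells 1 was called, lower (background 2.32%, with 1.28% higher and 1.05% lower). In STAT3-deficient cells limma called none with IL-6 (background 1.43%) and none between the cytokines (background 0.205%). With IL-27 there, 1 was called, lower (background 3.6%, with 2.62% higher and 0.983% lower). The effect of IL-6 differed between genotypes for 3 probe sets, lower for Il6st and Jak3 and higher for Jak1 (background 2.21%, with 1.25% higher and 0.964% lower). That of IL-27 differed for none (background 0.00745%). All these backgrounds are shares at an adjusted p under 0.05. At an unadjusted limma p under 0.05 stood 2 member probe sets with IL-6 and 4 between the cytokines in STAT3-deficient cells. For the difference in the IL-27 effect it was 1. The share of all probe sets at that threshold is not given here, so these counts have no background. The median change of the 22 with IL-6 in WT cells was -0.03, beside -0.01 over all probe sets, and the median size of the change was 0.31, beside 0.18. Where a change of at least 1.5-fold was tested for, the rise of Jak3 with IL-6 in WT cells was the 1 call left in any comparison.

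**Figure D3:**
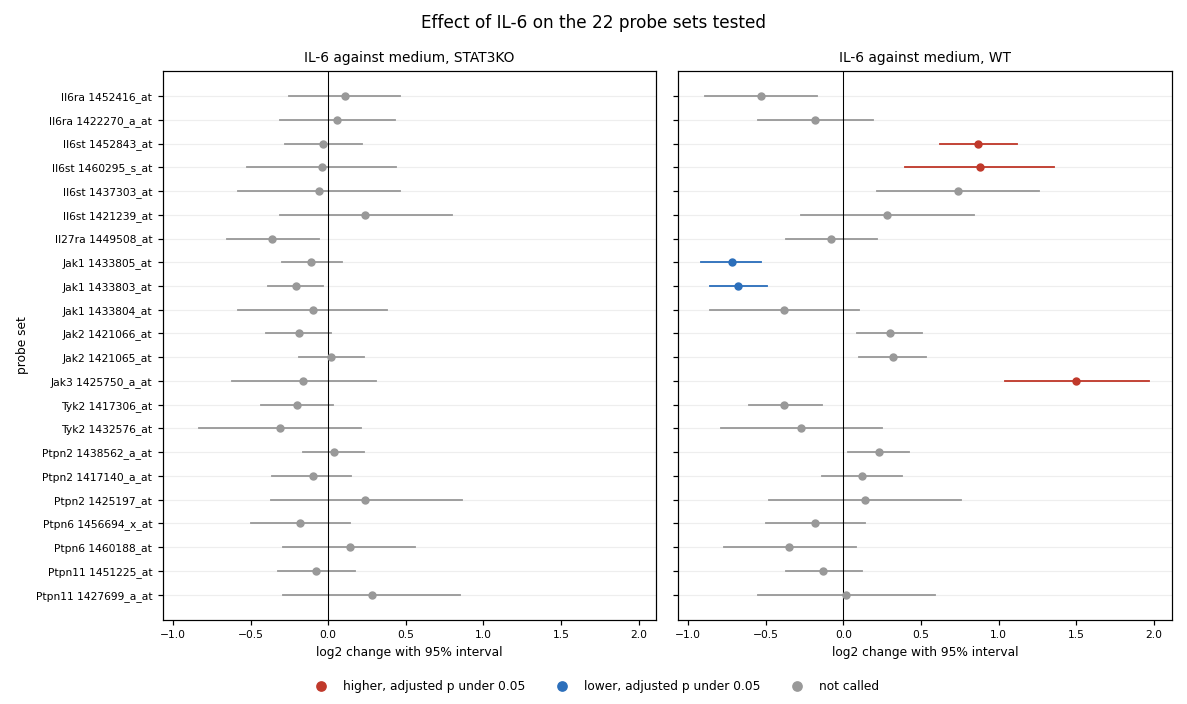
Log2 change with IL-6 against medium for the 22 tested probe sets (rows), in STAT3-deficient cells (left) and WT cells (right); points are the fitted change of 3 arrays against 3 and lines its 95% interval. In WT cells 2 Il6st probe sets and Jak3 were called higher and 2 Jak1 probe sets lower, and none was called in STAT3-deficient cells.

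**Figure D4:**
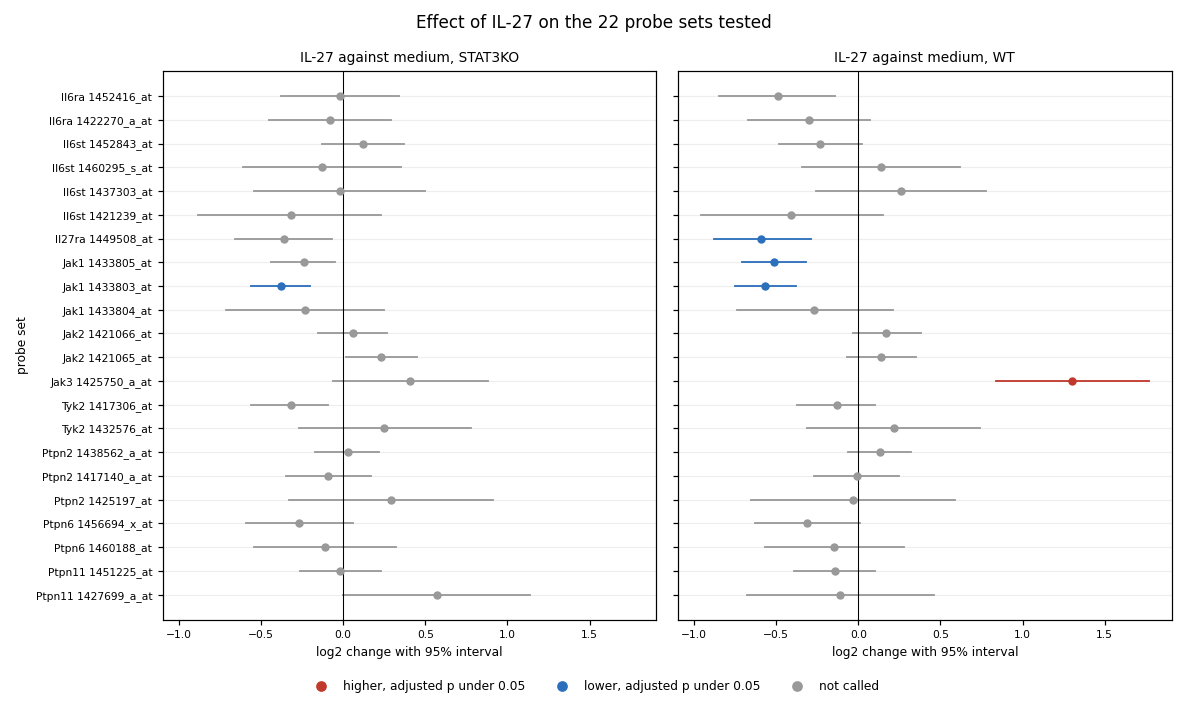
Log2 change with IL-27 against medium for the same 22 probe sets, in STAT3-deficient cells (left) and WT cells (right); points are the fitted change of 3 arrays against 3 and lines its 95% interval. In WT cells Jak3 was called higher and Il27ra and 2 Jak1 probe sets lower, and in STAT3-deficient cells 1 Jak1 probe set was called lower.

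Other genes of the pathway, each read from its brightest probe set, moved beside these. Of 74 genes listed 57 were measured, and with IL-6 in WT cells 14 rose and 5 fell, where 3.43% and 4.24% of all 11971 genes did. With IL-27 in WT cells 7 were higher and 2 lower, beside 2.37% and 1.57% of all genes. In STAT3-deficient cells 4 were higher and none lower with IL-6, beside 1.64% and 0.142% of all genes. With IL-27 there, 7 were higher and 2 lower, beside 3.07% and 1.4% of all genes. The median change of the 57 with IL-6 in WT cells was 0.04, beside -0.02 over all genes.

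Among 11 measured receptor chains that use the same kinases, 3 rose and 2 fell with IL-6 in WT cells. Il21r, the IL-21 receptor, rose by 0.85 ± 0.13 (adjusted p = 0.00022) and Il4ra, the IL-4 receptor chain, by 0.72 ± 0.09 (adjusted p = 3.05e-05), both partners of JAK3 through the common gamma chain. Il7r, the IL-7 receptor chain and likewise a partner of JAK3 through the common gamma chain, fell by 0.65 with SE 0.09 (adjusted p = 9.63e-05). In STAT3-deficient cells the IL-6 values of these 3 were -0.07 ± 0.13, 0.13 ± 0.09 and -0.10 ± 0.09, and the difference between the genotypes' effects passed for each (adjusted p = 0.00902 for Il21r, 0.0185 for Il4ra and 0.0283 for Il7r).

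Of 9 other phosphatases measured, 3 rose and 2 fell with IL-6 in WT cells. Ptpn1, which encodes PTP1B, a phosphatase of JAK2 and TYK2, averaged 5620 units with IL-6 and 2630 units in medium and rose by 1.08 ± 0.09 (adjusted p = 1.29e-07). Dusp2, a phosphatase of MAP kinases, changed by -1.49 ± 0.26 (adjusted p = 0.000912), and Ptpn22, which restrains T cell receptor signalling, by -1.40 ± 0.14 (adjusted p = 1.7e-06). In STAT3-deficient cells Ptpn1 stood at -0.04 ± 0.09, Dusp2 at -0.28 ± 0.26 and Ptpn22 at -0.35 ± 0.14 with IL-6, and none passed. The IL-6 effect differed between genotypes for Ptpn1 by -1.12 ± 0.13 (adjusted p = 4e-05) and for Ptpn22 by 1.05 ± 0.20 (adjusted p = 0.0064). Of 7 adaptors that link gp130 and SHP-2 to RAS and other pathways, Gab3 rose by 1.11 ± 0.28 and Sos1 by 0.56 ± 0.15 with IL-6 in WT cells, and none was called with IL-27. Among the 12 SOCS and PIAS inhibitors 3 rose with each cytokine in WT cells, Socs1, Socs3 and Cish, and Cish, a STAT5 target that limits common gamma chain signalling, rose by 1.23 ± 0.17 with IL-6 and 0.69 ± 0.17 with IL-27. Of 6 measured STAT genes Stat5a was lower with IL-6 in WT cells by -0.48 ± 0.12 (adjusted p = 0.0185), and Stat2 and Stat3 were higher with each cytokine in both genotypes. Of 9 listed receptor chains related to gp130, 1 was measured, Il12rb2, which binds IL-12. It rose by 1.47 ± 0.36 with IL-6 (adjusted p = 0.0159) and 1.34 ± 0.36 with IL-27 (adjusted p = 0.049) in WT cells. In STAT3-deficient cells it averaged 227 units with IL-27 and 15 units in medium and rose by 2.46 ± 0.36 (adjusted p = 0.000191), and with IL-6 it stood at 1.12 ± 0.36 (adjusted p = 0.248). Those medium arrays had deposited medians of 172.2 units or more, so Il12rb2 passed the filter through other groups. The size of its rise from this floor depends on the 32 added before the log.

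The genes whose brightest probe set followed a receptor chain most closely over the 18 arrays were, for Il6st, Il17ra (Pearson r = 0.93), Slc30a4 (0.93) and Serpinb1a (0.92). For Il27ra they were Gnai2 (0.89), Tnrc6c (0.88) and Odc1 (0.88), and for Il6ra, Sco2 (0.84), 2310039H08Rik (0.83) and Rsl1d1 (0.81). These were the 3 highest of 11970 genes in each case and are a description, since all points share the arrays and their normalisation.

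In medium, without added cytokine, 13 of the 22 probe sets differed between STAT3-deficient and WT cells, 7 higher and 6 lower, where 24.3% of all probe sets were called, 11.3% higher and 13% lower. The 13 belong to 7 of the 10 genes. Jak2 was higher on both probe sets, at 4060, 3840 and 3630 units in STAT3-deficient cells and 1840, 2110 and 2250 units in WT cells for the brighter one (0.89 ± 0.10, adjusted p = 1.35e-05) and by 0.48 ± 0.10 for the other. Il6ra was lower on both, at 1940, 1750 and 1900 units in STAT3-deficient cells and 2760, 3440 and 2920 units in WT cells for the brighter one (-0.69 ± 0.17, adjusted p = 0.00753) and by -0.76 ± 0.18 for the other. The brighter Tyk2 probe set was higher by 0.54 ± 0.11 (adjusted p = 0.00223) and Il27ra by 0.43 ± 0.14 (adjusted p = 0.0341). In each of these the arrays of the groups did not overlap. The dimmer Tyk2 probe set, 1432576_at, stood at 0.51 ± 0.25 and was not called (adjusted p = 0.143), with overlap between the arrays.

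Probe sets of the same gene disagreed between genotypes for Il6st and Jak1. The 2 bright Jak1 probe sets were higher in STAT3-deficient cells by 0.33 ± 0.09 and 0.44 ± 0.09, while the dimmest read 555, 440 and 422 units in STAT3-deficient cells and 1030, 1630 and 1560 units in WT cells, lower by -1.5 ± 0.23 (adjusted p = 0.000229). For Il6st, 1437303_at read 909, 667 and 491 units in STAT3-deficient cells and 262, 199 and 300 units in WT cells (1.31 ± 0.25, adjusted p = 0.00124). The probe sets 1460295_s_at and 1421239_at were lower, by -0.77 ± 0.23 and -0.83 ± 0.27, and the brightest stood at -0.17 ± 0.12 (adjusted p = 0.317). Of the phosphatases 1 probe set was called, the dim Ptpn11 probe set 1427699_a_at at -1.21 ± 0.27 (adjusted p = 0.004), beside -0.30 ± 0.12 for the brighter one (adjusted p = 0.0688).

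The genotypes also differed in medium in 8 of 9 tested B cell markers, all higher in STAT3-deficient cells with a median of 1.73, and in 3 of 9 tested myeloid markers that were higher and 1 that was lower. Among the B cell markers Cd79a averaged 198 units in STAT3-deficient cells and 39.3 units in WT cells, and Ms4a1 433 units in STAT3-deficient cells and 198 units in WT cells. Ms4a1 lay above the median of its array on all 18 arrays and Cd79a on 7. The filter kept markers as dim in WT cells as Cd79a mainly for their signal in STAT3-deficient cells. The count and the median of the tested markers rest partly on that. When B cell and myeloid marker levels entered the fit, 1 of the 22 probe sets was called, the brighter one of Jak2 (0.92 ± 0.22, adjusted p = 0.0316), and standard errors were larger. The level entered was the mean of the same kept markers, so it rests partly on that filter too. As 8 of the 9 B cell markers differed by genotype, the fit could not separate marker level well from genotype. Several values that lost their call were about as large as before, such as -1.45 ± 0.51 for the dimmest Jak1 probe set and -0.63 ± 0.38 and -0.58 ± 0.39 for Il6ra. That of the dim Ptpn11 probe set was larger, at -1.78 ± 0.59 beside -1.21 ± 0.27. Others were smaller, at 0.18 ± 0.23 for the brighter Tyk2 probe set, 0.20 ± 0.31 for Il27ra and 0.61 ± 0.52 for 1437303_at of Il6st. The part of the 3' to 5' ratios given above in the differences was not tested, and no label tells genotype apart from the handling of the arrays. With median centring the median over all probe sets lay at -0.36, with the deposited scaling at 0.18 and with quantile normalisation at 0. Of all calls, 46.4% were higher with quantile normalisation, 64.1% on the scaling as deposited and 11.4% after median centring. With median centring 1 member probe set was higher and 13 were lower, and the higher values of the brighter Tyk2, Il27ra, the dimmer Jak2 and both bright Jak1 probe sets turned negative.

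**Figure D5:**
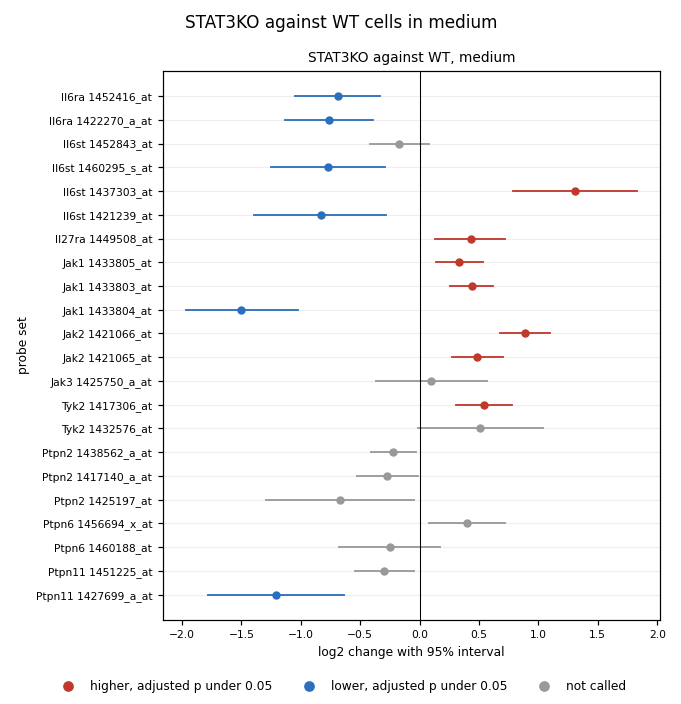
Log2 change of STAT3-deficient against WT cells in medium for the 22 tested probe sets (rows); points are the fitted change of 3 arrays against 3 and lines its 95% interval. Both Il6ra probe sets were lower and both Jak2 probe sets higher in STAT3-deficient cells, while probe sets of Il6st and of Jak1 fell on either side of 0.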

How the data were processed

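Affymetrix 430 2.0 mouse arrays were read from the deposited table, whose values are intensity on a linear scale, made by the authors with GCOS per the submitters' processing notes; no source used here gives its version, algorithm or genome build. The mean after trimming 2% at each end was 500 on each of the 18 arrays. The 64 control probe sets were left out of the tests. Genes were named from the platform annotation, and a probe set counted for a gene only where it named that gene alone. Values were transformed as log2 of the intensity plus 32 and quantile normalised (limma 3.58.1, R 4.3.3), since array medians differed by 1.82-fold. Probe sets that exceeded their own array's median on fewer than 3 arrays were dropped.

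Group means for the 6 groups were fitted with limma to all kept probe sets (12 residual and 6.39 prior degrees of freedom, variance trend). There were 9 comparisons, two-sided, with Benjamini-Hochberg adjustment over the 26860 probe sets in each. The median SE was 0.207 for 2 groups and 0.292 for a difference of effects, and for arrays their number limits the precision. The scripts were tested on simulated data. P-values set each change against the spread between arrays within the groups. Since pooling of mice is not stated, that spread may not be one between single mice. Members, gene lists, tests and alternatives were chosen with earlier results of these data known. Pathway genes were named from those called, up to the 3 largest changes for each role and comparison. Not all such genes were named in every comparison, that of the genotypes in medium among them. Osm, Adam10, Adam17, Cd79a, Ms4a1, Ccr7 and Lef1 fall outside that rule and were chosen after their values were seen. No protein sequences were used here.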

Additional observations from a re-analysis of the deposited data

Results flagged for a closer look

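For 3 probe sets the effect of IL-6 differed between STAT3-deficient and WT cells by a test of the difference itself, where 2.21% of all probe sets did. The difference was -1.66 ± 0.31 for Jak3 (adjusted p = 0.00579), with an IL-6 change of -0.16 in STAT3-deficient cells and 1.5 in WT cells, and all 3 WT arrays with IL-6 above all WT medium arrays. It was -0.90 ± 0.17 for the brightest Il6st probe set (adjusted p = 0.00519), with -0.03 in STAT3-deficient cells and 0.87 in WT cells. It was 0.62 ± 0.13 for the brightest Jak1 probe set (adjusted p = 0.0146), with -0.11 in STAT3-deficient cells and -0.72 in WT cells. No other of the 22 probe sets passed for IL-6, and none passed for IL-27.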

How the results depend on the processing

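Values were recomputed under up to 16 other settings and with each array left out in turn, 31 to 34 alternatives for each; settings with 1 value a gene give none for its dimmer probe sets, and the replicate block within genotype gives none between genotypes. Of 6494 single values, 6343 kept their call or its absence and, where called, their direction. Most of the 6494 were not called in the main fit, and only called values could lose a call or turn round. The share kept is therefore not a share of calls. A call was lost by 83 and gained by 61, and 7 called values turned round, all for STAT3-deficient against WT cells in medium. With median centring these were Tyk2 (1417306_at) at -0.09, Il27ra at -0.20, Jak2 (1421065_at) at -0.13 and Jak1 at -0.39 (1433803_at) and -0.49 (1433805_at). Jak1 was -0.24 with the mean of all probe sets of the gene, and Il6st (1460295_s_at) 0.34 with the marker covariate. The numbers in the sample names were checked as pairs: 10 of 18 same-numbered pairs within a genotype correlated above 0.1 (r from -0.147 to 0.337), and 13 of 18 arrays correlated best with their own number, a hint from the data only. With the replicate block the count of 1 for IL-27 against IL-6 in WT cells was 2, and with the replicate block within genotype it was 3, while 5 with IL-6 in WT cells was 10 and 3 for the difference in the IL-6 effect was 5. Il6ra (1452416_at) passed in WT cells with IL-6 under the replicate block (adjusted p = 0.0364) and the replicate block within genotype (adjusted p = 0.0155), and with IL-27 under the replicate block within genotype (adjusted p = 0.0384). With array weights, 9 were called with IL-6 and 2 for IL-27 against IL-6 in WT cells. That count was also 2 with the deposited scaling, with the mean of all probe sets and with only the arrays compared. A minimum of 1.5-fold left 1 with IL-6 in WT cells and 0 in the other comparisons. Median centring left 1 with IL-27 in WT cells. The single call with IL-27 in STAT3-deficient cells went to 0 with the deposited scaling, median centring, 1 probe set a gene, the mean of all probe sets, no variance trend, only the arrays compared or without the STAT3-deficient arrays numbered 3. For the genotypes in medium 5 were called with 1 probe set a gene or with the mean of a gene's probe sets, and 1 with the marker covariate, under which standard errors were larger and several values, Il6ra and Jak1 (1433804_at) among them, were about as large as before. Where fewer features or samples or a stricter test were not the cause, the cause was not tested. With 1 array left out the counts were 4 to 6 with IL-6 and 3 to 4 with IL-27 in WT cells, 1 to 2 for IL-27 against IL-6 in WT cells (2 without the WT IL-6 array numbered 3), 0 to 1 with IL-27 in STAT3-deficient cells, 2 to 4 for the difference in the IL-6 effect and 11 to 13 for the genotypes in medium.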

Other observations

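Of 11 genes for ligands of gp130 and related receptors, 6 were measured, and 1 was called with a cytokine in either genotype. Clcf1, a ligand that signals through gp130, averaged 890 units with IL-27 and 1880 units in medium in STAT3-deficient cells, a change of -1.06 ± 0.24 (adjusted p = 0.0157). In WT cells it stood at -0.09 ± 0.24 with IL-27. Osm, which encodes oncostatin M, averaged 750 units with IL-6 and 475 units in medium in WT cells, and its 0.63 ± 0.22 did not pass (adjusted p = 0.104). None of the 5 genes of proteases that shed the IL-6 receptor and of their regulators was called in any comparison; with IL-6 in WT cells Adam10 stood at 0.12 ± 0.17 and Adam17 at -0.02 ± 0.13.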
